A study of Homo sapiens with 15 samples.

Results

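The cytosolic ribosomal protein genes were followed across 5 groups of RNA-seq libraries. Members were taken by symbol, as genes whose name begins with RPL or RPS followed by a digit or P, leaving out the S6 kinases, the RPS4Y genes and read-through genes with a hyphen in the name. This gave 84 genes of the 17138 listed in the deposited tables, and all 84 were listed for both cell lines. They comprise 30 proteins of the small (40S) subunit, 46 of the large (60S) subunit and 8 paralogues or look-alikes that share the naming pattern, among them RPL22L1, RPL26L1 and RPS19BP1. The fibroblasts were MRC5, from human lung, and the tumour lines came from small cell lung cancer (SCLC), H69 of the neuroendocrine and H196 of the non-neuroendocrine type. In MRC5_Mo the fibroblasts had no partner, in MRC5_CoH69 it was H69 and in MRC5_CoH196 it was H196. H196_Mo held tumour cells without a partner and H196_Co the same line facing MRC5. All cultures ran for 7 days, with the partner on a porous transwell insert and no other agent. Each group had 3 libraries, 15 in all, and the labels do not say whether these came from separate cultures, so p-values measure the spread between libraries, which may be technical. Each cell type is 1 line, and fibroblasts and SCLC cells were kept in different media (MEM and RPMI 1640), so line and medium cannot be told apart. The methods do not name the medium of the co-cultures, so an effect of the partner cannot be told apart from a change of medium.

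Ribosomal proteins pair with ribosomal RNA to build the small subunit, which reads the mRNA, and the large subunit, which joins amino acids. Their mRNAs are among the most abundant of a growing cell and are known as TOP mRNAs, because they begin with a terminal oligopyrimidine tract, a C followed by a run of C and T, through which the kinase mTOR and the RNA-binding protein LARP1 set their translation and stability. A few genes have paralogues that replace the usual protein in some tissues, such as RPL22L1 for RPL22 and RPL39L for RPL39, and others carry a similar name with a different task, such as RPS19BP1, a nucleolar partner of RPS19 that also binds the deacetylase SIRT1.

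The start of the gene carried the tract in most members. Promoter sequences from RefSeq (GRCh38.p14) were found for 61 of the 76 genes of canonical subunit proteins and for 5 of the 8 paralogues and look-alikes. A C at the annotated start followed by at least 4 further C or T on the gene's own strand was present in 45 of the 61 (73.8%) and in 1 of the 5, RPL22L1, against 5.14% of all 27305 genes with a promoter in the table and 7.36% of the 10962 that were also tested in both lines. The annotated start decides this match: allowing the C to lie up to 10 bases to either side raised the share to 56 of 61 members, and that of all genes to 38.4%. Of the 20 members with a promoter and no match at the start, 16 were canonical, including RPL9, RPL15, RPL3, RPS26 and RPS29. A match within 10 bases was found for RPL9, RPL15, RPL3 and RPS26, and not for RPS29, RPL26L1 or RPS27L. The sequences below show 50 bases before the start and 30 from it, for the genes that rose or fell most beside their partners. Only a tract that begins at the start itself is in capitals. RPL34 and RPL9 were among the members that rose most in co-cultured fibroblasts, RPL22, RPL26 and RPS27 are the partners of the 3 paralogues that follow them, and RPS26 was the 1 canonical member called lower there on TMM-scaled counts.
RPL34: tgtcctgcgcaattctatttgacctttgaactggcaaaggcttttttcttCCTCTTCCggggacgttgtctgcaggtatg
RPL9: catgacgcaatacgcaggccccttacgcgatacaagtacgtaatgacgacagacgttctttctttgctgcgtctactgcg
RPL22: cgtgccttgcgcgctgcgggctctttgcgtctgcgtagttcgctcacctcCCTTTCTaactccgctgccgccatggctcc
RPL22L1: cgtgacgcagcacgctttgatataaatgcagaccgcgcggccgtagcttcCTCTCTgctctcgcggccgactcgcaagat
RPL26: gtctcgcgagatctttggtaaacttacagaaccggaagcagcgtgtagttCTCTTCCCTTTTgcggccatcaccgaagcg
RPL26L1: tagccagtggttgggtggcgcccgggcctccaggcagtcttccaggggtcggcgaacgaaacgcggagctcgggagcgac
RPS27: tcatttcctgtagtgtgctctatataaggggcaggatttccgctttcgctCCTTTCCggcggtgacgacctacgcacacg
RPS27L: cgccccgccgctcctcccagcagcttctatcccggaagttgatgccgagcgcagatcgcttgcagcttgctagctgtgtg
RPS26: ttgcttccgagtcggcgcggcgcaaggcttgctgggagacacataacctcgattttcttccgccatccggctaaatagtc
These stretches lie at chr4:108620526-108620605 (plus strand) for RPL34, chr4:39458893-39458972 (minus) for RPL9, chr1:6199566-6199645 (minus) for RPL22, chr3:170870166-170870245 (minus) for RPL22L1, chr17:8383164-8383243 (minus) for RPL26, chr5:172958679-172958758 (plus) for RPL26L1, chr1:153990712-153990791 (plus) for RPS27, chr15:63157448-63157527 (minus) for RPS27L and chr12:56041868-56041947 (plus) for RPS26. RPL22L1 carried a tract of 6 bases and its partner RPL22 one of 7, whereas RPL26L1 and RPS27L had none beside tracts of 12 bases in RPL26 and 7 in RPS27. A match describes the letters at the annotated start and is not a measurement of the RNA's own end.

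The libraries held 16073597 to 19170560 expected counts, the authors' estimated reads per gene. The labelled cell types were checked against marker genes. All 8 fibroblast markers, among them COL1A1 and DCN, were at 1 FPKM (fragments per kilobase of gene, scaled to library depth) or more in every MRC5 group and none was in either H196 group, and their summed FPKM was 5106 to 5689 in MRC5_Mo, 5873 to 6068 in MRC5_CoH69 and 2494 to 2641 in MRC5_CoH196. From MRC5_Mo to MRC5_CoH196 the collagens fell most by mean FPKM, COL1A1 from 2628 to 785, COL1A2 from 1974 to 1191 and COL3A1 from 260 to 54.0. Means of DCN, FAP and THY1 were lower by less, and those of PDGFRB and LUM were higher. SYP, the 1 neuroendocrine marker seen in H196 cells, had a mean of 8.71 FPKM in H196_Mo and 0.0833 FPKM in MRC5_CoH196, beside 0.1 FPKM in MRC5_Mo. NEUROD1 and CHGA were at 0 in all MRC5 libraries and the endothelial markers summed to at most 0.11 FPKM in any library. Of the 3 leukocyte markers only CD68, which is not restricted to leukocytes, reached 1 FPKM, and KRT8 and KRT18 were expressed in both lines while EPCAM and CDH1 were not.

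The 84 genes took 5.05% to 5.13% of the counts in MRC5_Mo, 4.79% to 4.96% in MRC5_CoH69 and 5.07% to 5.30% in MRC5_CoH196. In the SCLC line they took 8.48% to 9.47% in H196_Mo and 8.99% to 10.3% in H196_Co. Every H196 library lay above every MRC5 library, every MRC5_CoH69 library lay below every library of the other groups, and MRC5_CoH196 overlapped with MRC5_Mo, as did H196_Co with H196_Mo. Summed over FPKM, transcripts of 40S proteins stood to those of 60S proteins at 0.863 ± 0.006 in MRC5_Mo, 0.874 ± 0.004 in MRC5_CoH69 and 0.848 ± 0.013 in MRC5_CoH196 (SD, n = 3 each). This ratio was 0.956 ± 0.020 in H196_Mo and 0.954 ± 0.016 in H196_Co, higher than in any fibroblast library. In these bulk libraries, less RNA per cell and fewer cells of a kind cannot be told apart.

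**Figure D1:**
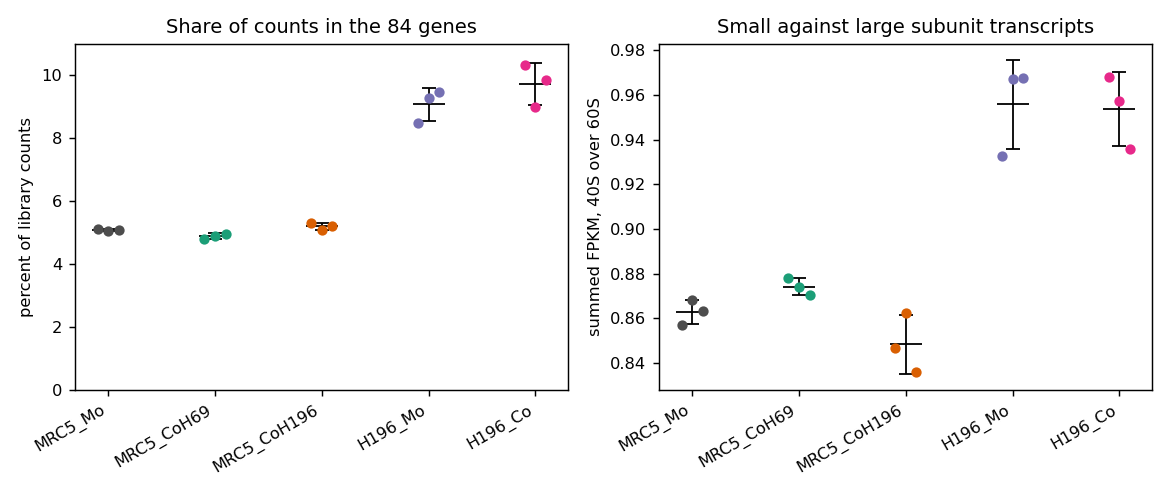
Percent of library counts held by the 84 ribosomal protein genes (left) and summed FPKM of 40S over 60S protein genes (right) in the 5 groups. Points are libraries, horizontal marks the mean and bars the SD (n = 3). The H196 libraries, at 8.48% to 10.3%, sit above all MRC5 libraries, at 4.79% to 5.30%, and the right axis does not start at 0.

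On the FPKM scale the highest mean levels over all 15 libraries were those of the small subunit genes RPS18, RPS27 and RPS20. RPS18 had 4488 ± 84.5 FPKM in MRC5_Mo and 9480 ± 941 FPKM in H196_Mo, and RPS27 had 4344 ± 108 and 8861 ± 519 FPKM (SD, n = 3). The median canonical member lay at 1283 FPKM in MRC5_Mo and 2155 FPKM in H196_Mo, where the median over all genes with a mean of at least 1 FPKM was 11.2 and 12.6 FPKM. RPL37 and RPL14 were the lowest canonical members, at 61.1 ± 0.995 and 79.8 ± 0.937 FPKM in MRC5_Mo, although the proteins are used in equal number in each ribosome. FPKM divides by a gene length, and the length implied by count and FPKM was 7289 bases for RPL37 and 6750 bases for RPL14 but 42.5 bases for RPS29 and 82.9 bases for RPS27. RPL37 in fact had 8246 to 8493 counts in MRC5_Mo, more than the 2455 to 2692 counts of RPS29, which had a mean of 3073 FPKM there. The order of members by level therefore rests on these lengths, and the comparisons below are each made for 1 gene or 1 ratio between groups. RPL3L, the muscle form of RPL3, had at most 1 count in any library and was not tested. By FPKM, RPS27L, RPL22L1 and RPL39L were the lowest of the others, with means over all libraries of 15.5, 21.96 and 37.9 FPKM.

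On TMM-scaled counts, most ribosomal protein genes were slightly higher in fibroblasts grown with H196 cells than in fibroblasts grown alone. With quasi-likelihood tests in edgeR on TMM-scaled counts, 64 of the 83 tested members were higher in MRC5_CoH196 than in MRC5_Mo and 5 lower (Benjamini-Hochberg adjusted p below 0.05), beside 37.2% of all 12819 tested genes higher and 37.1% lower, or 74.3% in either direction. The median member changed by 0.20 on the log2 scale and the median canonical member by 0.22, against -0.00 over all genes. No canonical member passed the study's fold limit for a DEG (absolute log2 fold change above 0.58), which 31.9% of all genes passed, so the shift was small, and 49 of the 76 canonical members lay within 0.1 of their median. It was shared by both subunits, with 24 of 30 genes of 40S proteins higher (median 0.20) and 39 of 46 of 60S proteins (median 0.22). For 63 of the 83 members all libraries of one group lay above all of the other, beside 75.5% of all genes.

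The size of this shift depends on the scale. TMM, which assumes that most genes do not change, gave MRC5_CoH196 libraries factors below those of MRC5_Mo, and scaling by library totals alone moved the median of all genes to -0.18 and that of members to 0.020, with 21 members higher and 18 lower. On log2(FPKM + 1) the medians were -0.13 and 0.023, with 17 members higher and 14 lower. Members lay above the middle of all genes on each of these scales, and their share of the counts overlapped between the groups.

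The members that rose most in MRC5_CoH196 were RPL9, RPL30 and RPL34, all of the large subunit. RPL9 stood at 683, 666 and 659 CPM (counts scaled to library size with TMM) in MRC5_Mo and at 919, 895 and 1047 CPM in MRC5_CoH196, a log2 fold change of 0.51 ± 0.05 (SE; adjusted p = 6.56e-09). RPL34 had 244, 224 and 216 CPM alone and 286, 295 and 354 CPM in co-culture (0.45 ± 0.06, adjusted p = 3.2e-07). RPL30, a 60S protein that binds its own transcript in yeast, rose by 0.46 ± 0.09 (adjusted p = 5.12e-05). In each of these genes every co-culture library lay above every mono-culture library, and each also passed with library totals alone (0.34, 0.28 and 0.28). RPL5 and RPL11, which carry 5S rRNA into the large subunit and bind MDM2 when free, were higher by 0.39 ± 0.04 and 0.25 ± 0.05 (adjusted p = 1.18e-08 and 2.46e-05). RPS6, the substrate of the S6 kinases, was higher by 0.28 ± 0.05 (adjusted p = 6.36e-06). Of the acidic stalk proteins that recruit elongation factors, RPLP0 (0.16 ± 0.05) and RPLP2 (0.14 ± 0.05) passed the test and RPLP1 (0.03 ± 0.05, adjusted p = 0.614) did not.

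RPS26, a protein at the mRNA exit channel of the small subunit, was the 1 canonical member called lower with TMM scaling, where library totals alone gave 12. It had 292, 292 and 286 CPM in MRC5_Mo and 245, 236 and 251 CPM in MRC5_CoH196, without overlap (-0.25 ± 0.05, adjusted p = 5.31e-05, and -0.42 with library totals alone). The other 4 members called lower were RPL22L1, RPL26L1, RPS19BP1 and RPL7L1, none of them a canonical ribosomal protein gene. RPL22L1 dropped from 62.4, 60.1 and 60.6 CPM to 32.3, 35.9 and 32.1 CPM (-0.87 ± 0.06, adjusted p = 1.28e-12), the 1 member past the DEG limit with TMM scaling. RPL26L1, whose protein is nearly identical to RPL26, went from 27.6, 28.1 and 29.97 CPM to 21.1, 20.5 and 16.1 CPM (-0.57 ± 0.08, adjusted p = 4.01e-07). RPS19BP1 went from 36.7, 33.6 and 35.2 CPM to 23.5, 23.4 and 25.3 CPM (-0.55 ± 0.07, adjusted p = 6.92e-08), and RPL7L1, a nucleolar relative of RPL7 with a role in assembly of the large subunit, from 171, 182 and 179 CPM to 139, 139 and 135 CPM (-0.37 ± 0.04, adjusted p = 3.71e-08). In all 4 the co-culture libraries lay below every mono-culture library. With library totals alone RPL22L1 (-1.04), RPL26L1 (-0.74) and RPS19BP1 (-0.72) were past the DEG limit and RPL7L1 (-0.54) was not. Of the other members of this group, RPS27L, a relative of RPS27 known as a p53 target, was called higher by 0.16 ± 0.06 (adjusted p = 0.0302) with overlapping libraries, its sign turned with library totals (-0.017) and its call was lost without MRC5_CoH196 replicate 3 (adjusted p = 0.428), MRC5_Mo replicate 1 (0.0953) or MRC5_Mo replicate 2 (0.0879). RPL36AL (-0.11 ± 0.05, adjusted p = 0.0559) and RPL39L (-0.09 ± 0.10, adjusted p = 0.408) were not called. Both were called lower with library totals alone (-0.28 and -0.27, edgeR adjusted p = 1.3e-05 and 0.0189) and on log2(FPKM + 1) (-0.27 and -0.24, limma adjusted p = 0.00011 and 0.0135), and RPL36AL also without MRC5_CoH196 replicate 1 (-0.14, edgeR adjusted p = 0.0174) or MRC5_Mo replicate 2 (-0.15, 0.0219).

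**Figure D2:**
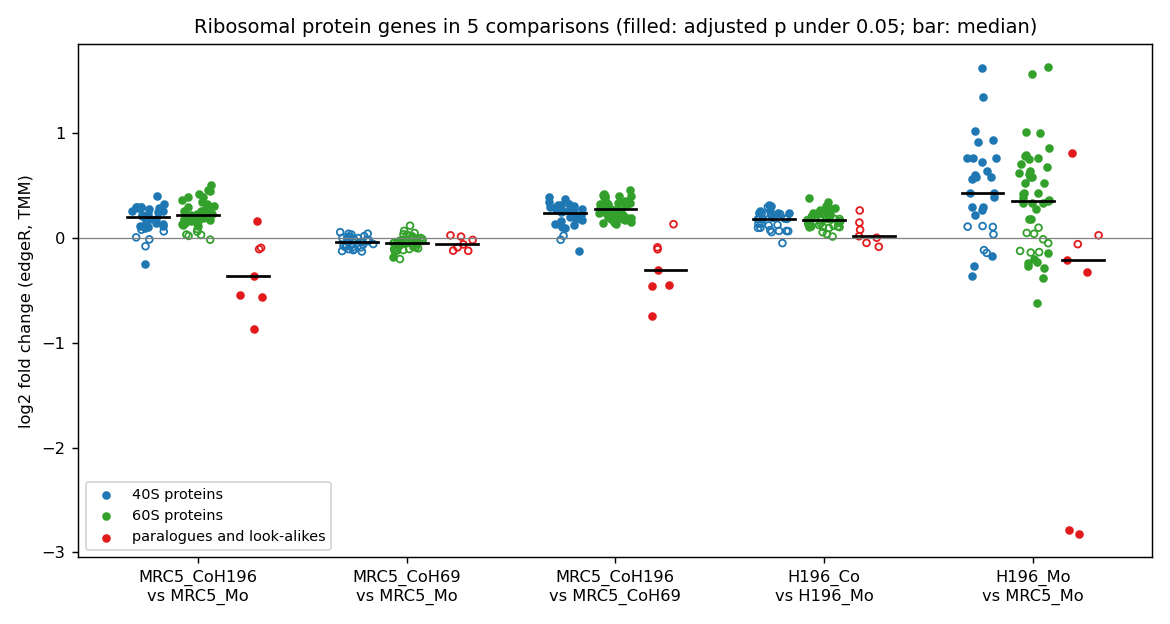
Log2 fold changes of the 83 tested members in 5 comparisons, by class. Filled points have an adjusted p below 0.05 and bars are class medians. In MRC5_CoH196 against MRC5_Mo the canonical members sit slightly above 0, at medians of 0.20 and 0.22, and most of the paralogues and look-alikes below it, at a median of -0.37. The spread is widest between the 2 cell lines.

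The ratio of each of these genes to its partner within the same library does not depend on scaling between libraries. Its size rests on the implied lengths of both genes, so only its change between groups is read here. RPL22L1 reached 22.7% of the FPKM of RPL22 in MRC5_Mo, 21.5% in MRC5_CoH69 and 10.9% in MRC5_CoH196, a log2 difference of -1.06 between the first and the last, with no overlap between libraries. The ratio of RPL26L1 to RPL26 fell from 3.19% to 1.69% (-0.93 on the log2 scale), that of RPL7L1 to RPL7 from 5.95% to 3.73% (-0.67) and that of RPS19BP1 to RPS19 from 9.74% to 4.98% (-0.97), also without overlap. For RPL39L to RPL39 (-0.41) and RPL36AL to RPL36A (-0.32) the groups did not overlap either, and for RPS27L to RPS27 (-0.15) they did. In H196_Co against H196_Mo the ratio of RPL36AL to RPL36A was also lower without overlap (-0.38), and for the other pairs the libraries overlapped. With 3 libraries in each group an exact permutation test cannot give a p below 0.1, so these are descriptions, and ratios from expected counts with 0.5 added differed by less than the replicate spread in all 7 pairs. RPL36A counts were fractional in 15 of 15 libraries, so its reads were shared with other genes. Those of its near-identical partner RPL36AL were fractional in 0 of 15. The read-through gene RPL36A-HNRNPH2 held 24.8 to 97.0 counts, also with fractions. Which genes shared these reads was not tested.

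**Figure D3:**
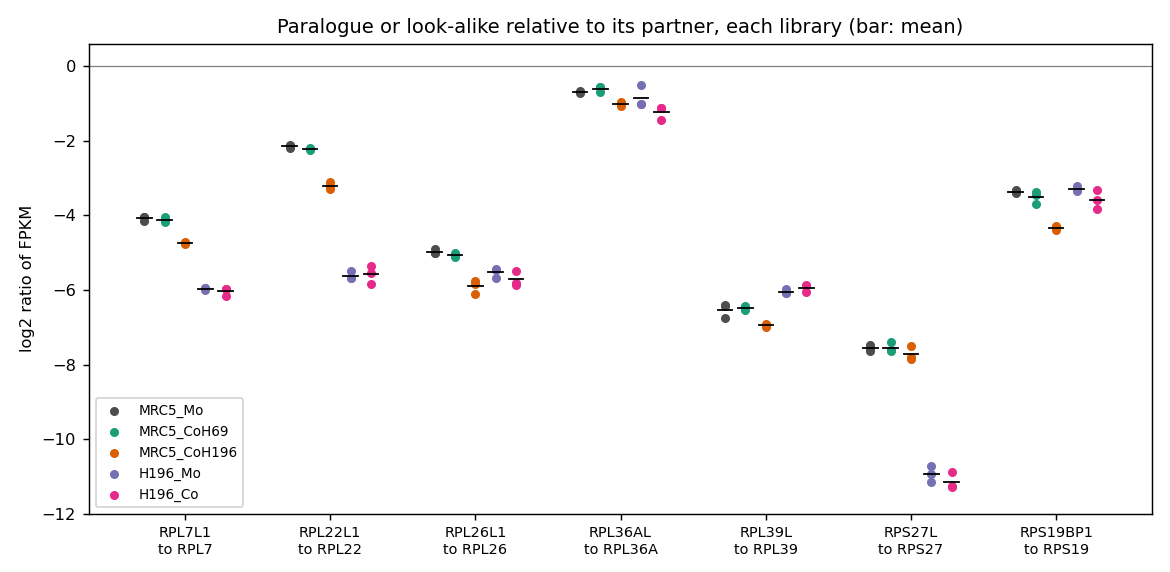
Log2 ratio of the FPKM of each paralogue or look-alike to that of its partner in every library, with bars at group means. MRC5_CoH196 lies below the other MRC5 groups in every pair except RPS27L to RPS27, where libraries overlap, and H196 cells have the lowest ratios for RPL7L1, RPL22L1 and RPS27L.

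On TMM-scaled counts, fibroblasts grown with H69 cells showed no comparable shift. By share of counts, however, every MRC5_CoH69 library (4.79% to 4.96%) lay below every MRC5_Mo library (5.05% to 5.13%). MRC5_CoH196 (5.07% to 5.30%) overlapped with MRC5_Mo. Of 83 members, 0 were higher in MRC5_CoH69 than in MRC5_Mo and 1 was lower, beside 3.78% and 2.93% of all genes or 6.70% in all, and 12 members had an unadjusted p below 0.05. That member was RPL35, a 60S protein at the exit tunnel, which stood at 321, 313 and 318 CPM in MRC5_Mo and 268, 282 and 293 CPM in MRC5_CoH69 (-0.18 ± 0.05, edgeR adjusted p = 0.0202). The median member stood at -0.04, with 65 of the 83 below 0, against -0.00 over all genes. No member passed the fold limit, as 0.554% of all genes did. No library overlap was seen for 17 members, all lower, beside 25.7% of all genes in either direction. RPL22L1 (-0.12 ± 0.05, adjusted p = 0.2) and RPL26L1 (-0.12 ± 0.07, adjusted p = 0.386) were not called. DESeq2 called 1 member as well and limma on log2(FPKM + 1) called 0. The call of RPL35 was lost when MRC5_CoH69 replicate 1 (adjusted p = 0.136) or replicate 2 (0.0623), or MRC5_Mo replicate 2 (0.0625) or replicate 3 (0.0739), was left out, and 2 members were called without MRC5_CoH69 replicate 3 or MRC5_CoH196 replicate 2.

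Between the 2 co-cultures of fibroblasts, which differ in partner, 73 members were higher with H196 and 5 lower, beside 35.7% and 36.6% of all genes or 72.3% in all. With TMM scaling RPL22L1 alone passed the fold limit, which 28.2% of all genes did, and libraries did not overlap for 70 members, beside 73.1% of all genes. The median member differed by 0.24 against -0.01 over all genes, and all 46 genes of 60S proteins were called higher. RPL9 (0.46 ± 0.05, adjusted p = 4.13e-08), RPL34 (0.42 ± 0.06, adjusted p = 1.06e-06) and RPL37 (0.41 ± 0.04, adjusted p = 7.97e-09) led. RPL37 had 389, 441 and 413 CPM with H69 and 552, 543 and 556 CPM with H196. RPL22L1 was lower by 0.75 on the log2 scale (-0.75 ± 0.06, adjusted p = 3.4e-11), followed by RPS19BP1 (-0.46 ± 0.07, adjusted p = 1.48e-06) and RPL26L1 (-0.45 ± 0.08, adjusted p = 1.7e-05). RPS26 (-0.12 ± 0.05, adjusted p = 0.0284) and RPL7L1 (-0.30 ± 0.04, adjusted p = 8.19e-07) were the other members called lower, and the call of RPS26 was lost without MRC5_CoH196 replicate 1 (adjusted p = 0.0604) or replicate 2 (0.122) or MRC5_CoH69 replicate 2 (0.253) or replicate 3 (0.0526). The comparison shares its MRC5_CoH196 and MRC5_CoH69 libraries with those against MRC5_Mo. With library totals alone 34 members were higher and 9 lower, at a median of 0.080 beside -0.17 over all genes, and RPL36AL (-0.25) and RPL39L (-0.27) were then among those lower. RPS19BP1 (-0.62) and RPL26L1 (-0.61) then passed the fold limit too.

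**Figure D4:**
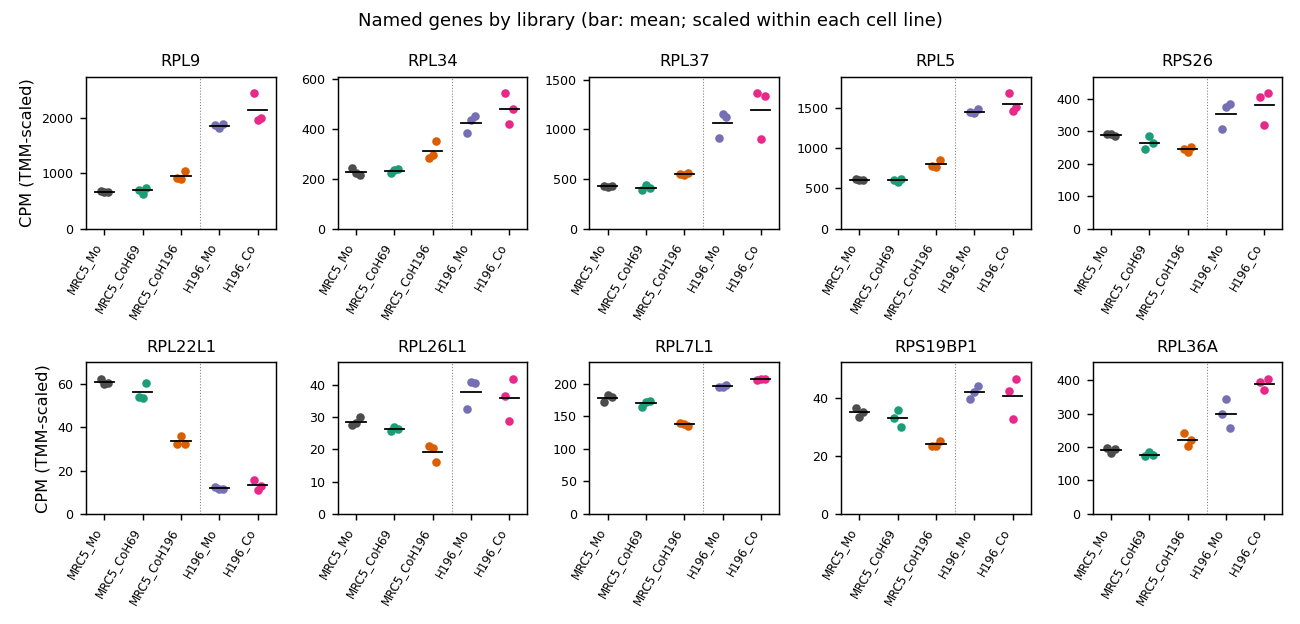
TMM-scaled CPM of 10 members in each library, scaled within each cell line, so that levels left and right of the dotted line are not on 1 scale. Bars are group means. RPL9, RPL34, RPL37 and RPL5 are higher in MRC5_CoH196 than in the other fibroblast groups, and RPS26, RPL22L1, RPL26L1, RPL7L1 and RPS19BP1 are lower than in MRC5_Mo.

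In H196 cells grown with fibroblasts the members also lay above the middle of all genes, with a wider spread between libraries. 19 of 83 members were higher in H196_Co than in H196_Mo and 0 lower, beside 12.0% and 7.78% of all 12806 tested genes or 19.8% in all, and 40 members had an unadjusted p below 0.05. The median member differed by 0.18 against -0.00 over all genes, and 80 of 83 were above 0. None passed the fold limit, as 3.86% of all genes did. RPL36A, the protein at the tRNA exit site, led with 299, 345 and 256 CPM in H196_Mo and 395, 369 and 404 CPM in H196_Co (0.38 ± 0.09, adjusted p = 0.00437). RPL38, known for its part in translating Hox mRNAs, had 425, 463 and 465 CPM against 642, 546 and 523 CPM (0.34 ± 0.08, adjusted p = 0.00491). In both genes the groups did not overlap, as in 24 of the 83 members, beside 37.2% of all genes. RPLP2 (0.27 ± 0.08), RPL3 (0.24 ± 0.08), RPS19 (0.22 ± 0.08) and RPS27 (0.24 ± 0.08) were among the other members called, and RPL5 (0.09 ± 0.07), RPL11 (0.13 ± 0.10) and RPS6 (0.20 ± 0.07) were not. None of the 7 tested paralogues and look-alikes was called, and RPL22L1 was at 12.4, 11.6 and 11.6 CPM alone and 15.7, 11.04 and 12.7 CPM in co-culture. RPL39L was called higher without H196_Co replicate 2 (0.37, edgeR adjusted p = 0.0049) and in a fit of all 15 libraries (0.28, adjusted p = 0.023).

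The number of members called in H196 cells rested on single libraries. It was 8 without H196_Co replicate 1, 44 without H196_Co replicate 2, 4 without H196_Co replicate 3 and 5 without H196_Mo replicate 1, and 4 with library totals alone. H196_Co replicate 1 had the highest share of counts in these genes (10.3%) and H196_Co replicate 2 the lowest of its group (8.99%). The median over members stayed between 0.10 and 0.24 whichever library was left out, and was 0.10 with library totals alone, beside -0.08 over all genes.

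The responses of the 2 lines were then compared directly. In a fit of all 15 libraries the difference of responses, that of H196 cells to MRC5 less that of MRC5 cells to H196, passed the test for 12 of 83 members, 8 above 0 and 4 below, beside 27.1% and 24.1% of all 13585 genes or 51.2% in all. With TMM scaling RPL22L1 was the 1 member whose difference also passed the fold limit, as 24.7% of all genes did. With library totals alone the differences of RPS19BP1 (0.597) and RPL26L1 (0.581) passed it too. The median of members was -0.00, against 0.03 over all genes. RPL22L1 stood out with a difference of 1.04 ± 0.13 (adjusted p = 1.36e-07), being lower in fibroblasts and not called in H196 cells. RPS19BP1 (0.53 ± 0.13, adjusted p = 0.00098), RPL26L1 (0.51 ± 0.15, adjusted p = 0.00516) and RPL7L1 (0.47 ± 0.07, adjusted p = 1.18e-06) followed, with RPL39L (0.38 ± 0.15, adjusted p = 0.0296) and RPS26 (0.37 ± 0.11, adjusted p = 0.00661). RPL15 (-0.28 ± 0.08, adjusted p = 0.00355), RPL9 (-0.28 ± 0.10, adjusted p = 0.0219) and RPL5 (-0.27 ± 0.08, adjusted p = 0.00442) had the larger response in fibroblasts. RPL15, a core 60S protein, had 947, 904 and 943 CPM in MRC5_Mo and 1213, 1292 and 1248 CPM in MRC5_CoH196, against 1067, 1089 and 1131 CPM in H196_Mo and 1288, 1108 and 1171 CPM in H196_Co. The balance of signs among the calls depended on the scaling, with 5 above and 9 below 0 under DESeq2 size factors and 15 above and 2 below with library totals. Over the 76 canonical members the log2 fold changes of the 2 responses, which share no library, had Pearson's r = 0.22 and Spearman's rho = 0.22. The correlations run across genes, which are not independent replicates. Above 0 were 72 members in fibroblasts and 75 in H196 cells. The 71 above 0 in both follow from these counts and say nothing of agreement.

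Between the cell lines the members were spread more widely than in any comparison with a co-culture. On TMM-scaled counts, 52 of 83 members were higher in H196_Mo than in MRC5_Mo and 15 lower, beside 44.0% and 42.6% of all genes or 86.6% in all. Of these members, 29 and 3 passed the fold limit as well, where 61.7% of all genes did so in either direction. Libraries did not overlap for 68 members, beside 87.6% of all genes. The median member was 0.36 higher against 0.03 over all genes. With library totals alone the medians were 0.78 and 0.45. Of the 76 canonical members, 72 were then called higher and 1 lower, as on log2(FPKM + 1), against 51 and 11 with TMM. The number of members lower in H196_Mo therefore depends on the scale. By FPKM all 6 H196 libraries lay above all 9 MRC5 libraries for 71 members and below for 2, beside 48.4% and 21.9% of all 13585 genes. By TMM-scaled CPM they lay above for 36 members and below for 3, beside 34.0% and 32.7% of all genes. Canonical members differed here in the size of their change. Their log2 fold changes with TMM had an SD of 0.48 and 24 of 76 lay within 0.2 of the median, against 67 of 76 for fibroblasts with and without H196 cells.

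The 3 members with the largest rise lie on the long arm of chromosome 8. RPL7 stood at 773, 763 and 752 FPKM in MRC5_Mo and 3234, 3106 and 3284 FPKM in H196_Mo (1.63 ± 0.06, adjusted p = 5.36e-21). RPS20 stood at 2080, 2065 and 1982 FPKM against 7897, 8569 and 9245 FPKM (1.63 ± 0.08, adjusted p = 3.54e-17), and RPL30 differed by 1.56 ± 0.11 (adjusted p = 6.1e-14). RPL8, the other canonical member on that arm, had 1885, 1945 and 1924 FPKM against 3970, 4649 and 4616 FPKM, and all 4 were called higher. Over all 303 tested genes of 8q the median difference was 0.98 and 72.9% were called higher, the widest such shift among the chromosome arms that carry members. On the short arm of chromosome 11, where the median of 247 genes was -0.77, RPL27A, RPLP2 and RPS13 had a median of 0.04. On chromosome 19, which carries 11 placed canonical members, their median was 0.10 beside 0.04 for its 966 tested genes, with 5 higher and 3 lower. The number of copies of these regions was not measured here, and its part in these differences was not tested.

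**Figure D5:**
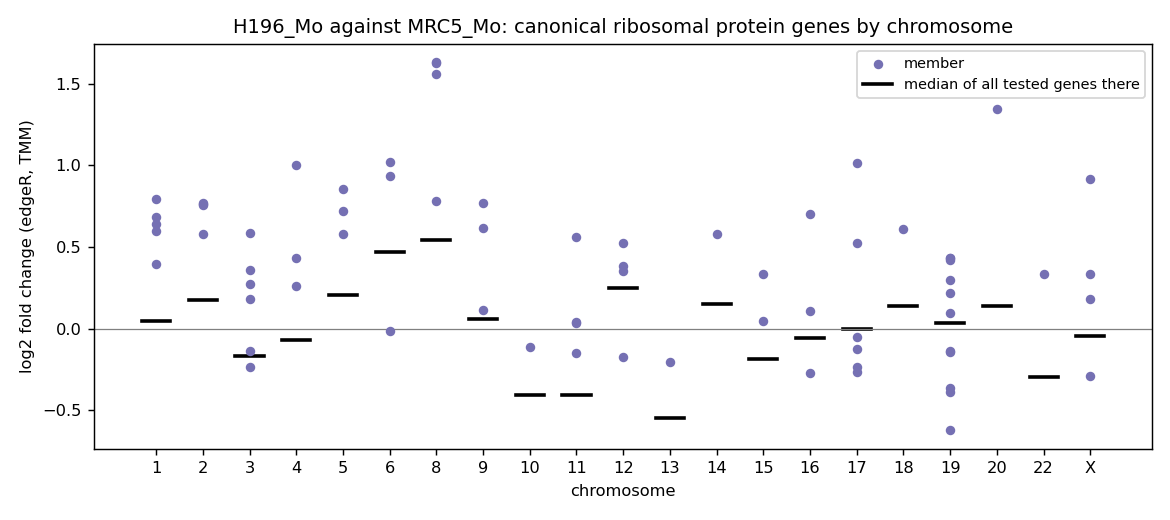
Log2 fold change of H196_Mo against MRC5_Mo for the canonical members, by chromosome, with the median of all tested genes on that chromosome as a black bar. The 4 members on chromosome 8 lie between 0.78 and 1.63, above a median of 0.54 for that chromosome, and most members lie above the bar of their own chromosome.

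Among the members lower in H196 cells, the paralogues RPL22L1 and RPS27L stood far apart from the rest. RPL22L1 had 40.1, 38.8 and 39.0 FPKM in MRC5_Mo and 8.03, 7.28 and 7.27 FPKM in H196_Mo (-2.83 ± 0.09, adjusted p = 3.94e-22), so that it reached 2.05% of RPL22 in H196_Mo where it reached 22.7% in MRC5_Mo. RPS27L had 22.3, 22.7 and 23.9 FPKM against 5.03, 4.42 and 4.13 FPKM (-2.78 ± 0.10, adjusted p = 6.88e-21), or 0.529% of the FPKM of RPS27 in MRC5_Mo and 0.0514% in H196_Mo. The size of these percentages rests on implied lengths of 5827.5 bases for RPS27L and 82.9 bases for RPS27. In MRC5_Mo, RPS27L had 2432.4 to 2589.1 counts and RPS27 had 6754 to 7026. RPL36, a 60S protein, followed with 884, 896 and 907 FPKM against 701, 810 and 815 FPKM (-0.62 ± 0.08, adjusted p = 1.89e-08), which came to -0.20 with library totals alone (adjusted p = 0.0131), within the fold limit. RPL39L, best known from testis and from cancer cells, was the 1 paralogue called higher in H196_Mo with TMM scaling (0.81 ± 0.10, adjusted p = 2.25e-08), at 56.9 ± 1.83 FPKM against 23.8 ± 2.82 FPKM. RPL7L1 (-0.32 ± 0.05, adjusted p = 3.32e-07) and RPS19BP1 (-0.21 ± 0.09, adjusted p = 0.0285) were called lower, the latter not without MRC5_Mo replicate 1 (0.095) or replicate 3 (0.0529) or H196_Mo replicate 1 (0.0974) or replicate 2 (0.051). RPL26L1 (-0.06 ± 0.10, adjusted p = 0.591) was not called, and with library totals alone all 3 were called higher (0.10, 0.22 and 0.37), as was RPL36AL (0.45). RPL5 and RPL11 were higher in H196_Mo by 0.80 ± 0.06 and 0.68 ± 0.09, RPLP0 by 0.38 ± 0.07 (adjusted p = 1.17e-13, 2.65e-08 and 1.04e-05), and RPS6 (0.11 ± 0.06, adjusted p = 0.0661), RPLP1 (0.05 ± 0.09) and RPLP2 (0.04 ± 0.07) were not called.

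Genes that work with the ribosomal proteins were followed beside them. RPSA, FAU and RACK1 are ribosomal proteins that the naming rule leaves out. In MRC5_CoH196 against MRC5_Mo, RACK1 (0.26 ± 0.05, adjusted p = 1.66e-05) was higher, and RPSA (0.08 ± 0.04) and FAU (0.03 ± 0.05) were not called. Of 25 other TOP mRNAs, which encode elongation and initiation factors and related proteins, 16 were higher and 4 lower, at a median of 0.23, beside 37.2% of all genes higher and 37.1% lower, so that the share called in either direction was near the 74.3% of all genes. EIF4B (0.91 ± 0.04, adjusted p = 1.82e-15) and NOP53 (0.62 ± 0.05, adjusted p = 1.09e-11) were highest and EIF3K (-0.32 ± 0.05, adjusted p = 2.1e-06) and EIF3G (-0.30 ± 0.05, adjusted p = 2.09e-06) lowest. The tract at the start was found in 16 of the 17 of these genes with a promoter in the table.

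Newly made ribosomal proteins are bound by dedicated chaperones until they reach the ribosome. All 6 of those listed were lower in MRC5_CoH196 than in MRC5_Mo, at a median of -0.65, where 37.1% of all genes were lower and 74.3% were called. GRWD1, which guards RPL3, differed by -1.53 ± 0.06 (adjusted p = 4.44e-17) and HEATR3, which imports RPL5, by -1.35 ± 0.10 (adjusted p = 9.53e-12), while BCCIP, the chaperone of RPL23, differed by -0.53 ± 0.05 and TSR2, that of RPS26, by -0.28 ± 0.06 (adjusted p = 3.3e-09 and 6.36e-05). In MRC5_CoH69 against MRC5_Mo GRWD1 (-0.21 ± 0.05, adjusted p = 0.0165) and BCCIP (-0.20 ± 0.05, adjusted p = 0.0231) were called lower and the other 4 chaperones were not called, beside 2.93% of all genes lower. Of the proteins named here with their chaperones, RPS26 was lower in MRC5_CoH196 as given above, while RPL3 was higher by 0.30 ± 0.05 (adjusted p = 1.05e-05), as was RPL5. RPL23 had 493, 458 and 477 CPM in MRC5_Mo and 565, 547 and 560.5 CPM in MRC5_CoH196. In H196 cells HEATR3 was the 1 chaperone called (-0.30 ± 0.09, adjusted p = 0.0182), and the difference of responses was above 0 and called for all 6. Among 13 regulators of TOP mRNAs and ribosome production, 5 were higher and 6 lower in MRC5_CoH196, beside the same 37.2% and 37.1% of all genes. MYC, a transcription factor that drives ribosome production, rose by 1.0 ± 0.06 (adjusted p = 3.07e-13) and EIF4EBP1, an inhibitor of cap-dependent translation, by 0.66 ± 0.06 (adjusted p = 3.35e-10), while MTOR (-0.72 ± 0.05, adjusted p = 1.06e-12) and the S6 kinase gene RPS6KB2 (-0.50 ± 0.07, adjusted p = 2.18e-07) were lowest. In H196_Co against H196_Mo MYC (0.62 ± 0.07, adjusted p = 6.14e-06) and EIF4EBP1 (0.50 ± 0.08, adjusted p = 0.000232) were higher as well, and LARP4 (-0.33 ± 0.09, adjusted p = 0.0107) and RPS6KB1 (-0.24 ± 0.08, adjusted p = 0.0324) were lower. Transcript levels say nothing of the activity of these kinases.

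Reads of ribosomal protein genes can be shared with the many pseudogenes of these genes. GENCODE v29 names 1071 pseudogenes after 76 of the 84 members, with 91 for RPL23A and 66 for RPL21, and none for 7 of the 8 paralogues and look-alikes. Of the 84 members, 72 had whole counts in every library, and 12 had a fractional count in at least 1, among them RPL12, RPL36A, RPL41 and RPS10 in 15 of 15 libraries. The read-through genes RPL17-C18orf32 and RPS10-NUDT3 held 270.7 to 464 and 32.8 to 97.3 counts. The tables list only mRNA genes, so reads from pseudogenes were not counted apart and their part in these values was not tested.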

How the data were processed

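Tables of the 9 MRC5 and 6 H196 libraries were analysed. Per the submitters' processing notes and methods, reads were cleaned with SOAPnuke and aligned with HISAT2 2.1.0 to GRCh38.p13 and Bowtie2 2.3.4.3, and RSEM 1.3.1 is listed among the tools. The authors deposited expected counts per gene, not normalized (93.7% of values whole for MRC5, 92.1% for H196), and FPKM values, and their own comparisons (fold changes, p-values and q-values) were not used, nor were 30 per-library columns of TPM and normalized counts or the group averages. Counts were rounded, filtered with filterByExpr, scaled by TMM and tested with quasi-likelihood models in edgeR 4.0.16 (R 4.3.3), with Benjamini-Hochberg adjustment over all genes, 2-sided. MRC5 and H196 tables were fitted separately, and the 2 lines together over genes in both tables. The tests recovered changes in data simulated from these tables, where a small set of genes was moved evenly up and down. Such data meet the assumption of TMM that most genes do not change, so they cannot check the scaling used here. Standard errors are the log2 fold change over the square root of F. Filtering left out 1 member, RPL3L. The 2 tables were made separately by the authors, so levels set across them also carry that difference.

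Named were, in each comparison, up to 3 members each with the largest and smallest log2 fold change among those with adjusted p below 0.05, at least 10 CPM and no overlap of libraries, the paralogues with partners, the stalk proteins, RPL5, RPL11, RPS6, the highest and lowest members by FPKM, and the 2 highest and lowest of each companion list. RPS26, RPL3, RPL23, RPS19, RPS27, RPL8, RPL15 outside the comparison of responses, and the genes named for counts, lengths or promoters were added after their values were seen. Results of some genes are not reported here. Members and lists were chosen with earlier results of these data known. Alternatives were DESeq2 1.42.0 size factors and Wald test, TMM without the members, limma 3.58.1 on log2(FPKM + 1) and log2(FPKM + 0.1), other count filters, limits and sets of libraries, a replicate block and each library left out. Scaling by library totals alone was added after seeing the data. Promoters came from RefSeq and pseudogene names from GENCODE v29.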

Additional observations from a re-analysis of the deposited data

Results flagged for a closer look

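The responses of the 2 lines differed by the test of the difference itself (edgeR, adjusted over all genes) for 12 of the 83 tested members, 9 of which were named for it, each given as the log2 response of H196 cells less that of MRC5 cells. The value was 1.04 for RPL22L1 (adjusted p = 1.36e-07), 0.53 for RPS19BP1 (0.00098), 0.51 for RPL26L1 (0.00516), 0.47 for RPL7L1 (1.18e-06), 0.38 for RPL39L (0.0296) and 0.37 for RPS26 (0.00661). It was -0.28 for RPL15 (0.00355), -0.28 for RPL9 (0.0219) and -0.27 for RPL5 (0.00442). RPL22L1 had 61.0 ± 1.20 CPM in MRC5_Mo and 33.4 ± 2.14 CPM in MRC5_CoH196, and 11.9 ± 0.440 and 13.2 ± 2.38 CPM in H196_Mo and H196_Co (SD, n = 3). The call of RPL39L was lost under 10 of the alternatives, among them DESeq2 (adjusted p = 0.0787), that of RPL9 under 5, among them library totals alone (adjusted p = 0.0694), and that of RPL26L1 without MRC5_CoH196 replicate 3 (adjusted p = 0.0633).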

How the results depend on the processing

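With library totals alone, log2(FPKM + 1) and log2(FPKM + 0.1), the members called were 39, 31 and 31 for MRC5_CoH196 against MRC5_Mo (medians 0.020, 0.023 and 0.023), 43, 35 and 35 for MRC5_CoH196 against MRC5_CoH69 (medians 0.080, 0.054 and 0.054), 3, 0 and 0 for MRC5_CoH69 against MRC5_Mo and 4, 2 and 2 for H196_Co against H196_Mo (medians 0.10, 0.082 and 0.082, in place of 0.18), and the median for H196_Mo against MRC5_Mo was 0.78, 0.79 and 0.79. On these 3 scales the sign turned for RPL26L1 (0.37, 0.40 and 0.40), RPL7L1 (0.10, 0.18 and 0.18) and RPS19BP1 (0.22, 0.23 and 0.23) between the lines and for RPS27L in MRC5_CoH196 (-0.017, -0.022 and -0.023). Members with all H196 libraries above all MRC5 libraries numbered 71 by FPKM and 36 by TMM-scaled CPM, beside 48.4% and 34.0% of all genes.

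With TMM scaling and the fold limit of 0.58 the calls were 1, 0, 1, 0, 32 and 1 for MRC5_CoH196 and MRC5_CoH69 against MRC5_Mo, the 2 co-cultures, H196_Co against H196_Mo, the lines and the difference of responses. At an adjusted p below 0.01 they were 0 for MRC5_CoH69, 3 for H196_Co and 7 for the difference of responses, which was also 7 without paralogues and RPS19BP1. Fitting all 15 libraries gave 41 for H196_Co and 0 for MRC5_CoH69, and only the groups compared gave 2 for the latter. The cause of these changes beyond the altered limits was not tested.

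Libraries with the same number deviated from their group means with correlations of -0.15 to 0.08, which gave no sign of pairing. The labels do not say whether such libraries were prepared together. With the replicate block, H196_Co against H196_Mo had 7 members called in place of 19, and the block changed no other count by more than 1.5 times.

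Leaving out each library gave 62 to 71 members called (median 0.19 to 0.24) for MRC5_CoH196 against MRC5_Mo, 0 to 2 (-0.06 to -0.03) for MRC5_CoH69, 72 to 78 (0.22 to 0.27) for the 2 co-cultures, 4 to 44 (0.10 to 0.24) for H196_Co, 64 to 70 (0.32 to 0.40) for the lines and 8 to 17 (-0.09 to 0.06) for the difference of responses. The remaining alternatives kept these counts within 1.5 times and the medians within the spread between replicates. That spread was 0.17 for H196_Co against H196_Mo, near the median shift of 0.18 itself, and 0.19 for the difference of responses. For these 2 the limit on medians therefore says little. In H196 cells 64 of 83 members were not called, which does not show that they did not change.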
